A study of Homo sapiens with 60 samples.

Results

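Untreated Rescue cells were set against untreated wild type (WT) cells of PC9, a human lung adenocarcinoma line with a mutated EGFR gene, to describe what METTL7A overexpression added to the WT peaks of H3K27Ac, RAD21 and PDS5A. The comparison used 12 of the 60 samples of the series, 2 replicates for each of 3 antibodies in each of the 2 genotypes, and 6 peak lists, each of which joined both replicates. Members were peaks on chromosomes 1 to 22 with a global irreproducible discovery rate (IDR) of 0.05 or less. The IDR is low where a peak ranks alike in both replicates. They numbered 47327 of the 147114 deposited peaks of the 6 lists on these chromosomes, and of 149466 peaks chosen in the same way from the 18 lists of the 3 antibodies in the series. Every deposited peak served as a second set. A position is said to be at the limit where its peak had an IDR of 0.05 or less, and over the limit where a peak was deposited with a higher IDR. Peaks were matched between genotypes by an overlap of 1 bp or more.

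CUT&RUN was used, an assay in which an antibody directs a nuclease to cut out the chromatin it binds, and the released fragments are sequenced. WT cells carried no labelled change. Rescue cells overexpressed METTL7A with a MYC and FLAG tag in a METTL7A knockout (KO) background, so they differed from WT cells both by the deletion of the endogenous gene and by the tagged transgene. Untreated KO cells, the background of the Rescue cells, and cells of all 3 genotypes grown under osimertinib, an inhibitor of EGFR raised stepwise from 100 nM over 6 to 8 weeks, were used only to look up positions. The labels name no promoter for the transgene and no clone for the KO line, and nothing says that replicates were separate cultures. The peak lists cannot show the METTL7A protein or transcript, so the genotypes were taken from the labels.

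H3K27Ac, the acetylation of lysine 27 of histone H3, marks active promoters and enhancers. RAD21 is the subunit that closes the ring of cohesin, the complex that extrudes chromatin loops and holds sister chromatids together. PDS5A binds that ring and regulates how cohesin is loaded, halted and released, so RAD21 and PDS5A commonly occupy the same sites, many of them bound by CTCF. METTL7A is a membrane-bound protein of the methyltransferase family.

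The 6 lists differed in length and in how well their replicates ranked peaks. For H3K27Ac 36.6% of the 38691 deposited Rescue peaks passed the limit against 22.7% of the 22245 WT peaks, for RAD21 37.3% of 24117 against 23.9% of 15214, and for PDS5A 42.0% of 32708 against 12.2% of 14139. Spearman's rho between the 2 replicate −log10 p values over deposited peaks, a description of each list, was 0.661, 0.642 and 0.670 in Rescue cells and 0.557, 0.557 and 0.420 in WT cells, in the same order. In the WT RAD21 list the median −log10 p was 48.6 in the first replicate column and 12.8 in the second, where the Rescue list had 34.0 and 21.0. Lists carry no read totals, so the depth of each library is unknown and its part in the differences of list length was not tested. The untreated IgG lists, the background control, held 10 peaks each in WT and Rescue cells at the limit, and 1042 and 1036 deposited ones. Values at the limit were close on both sides: the last Rescue RAD21 peak inside had a −log10 IDR of 1.30109 and the first outside 1.30098, and 795 Rescue RAD21 peaks lay between the limit and 1.4 against 920 between 1.2 and the limit.

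Rescue cells had more peaks than WT cells for all 3 antibodies, and PDS5A showed the largest ratio. H3K27Ac peaks numbered 14177 in Rescue and 5045 in WT cells, RAD21 peaks 8993 and 3635, and PDS5A peaks 13746 and 1731. The ratios came to 2.81, 2.47 and 7.94. Without the IDR limit, that is over every deposited peak, they were 1.74, 1.59 and 2.31, so the excess of Rescue peaks was then smaller, and most so for PDS5A. Covered length gave 2.92, 2.33 and 8.60, from 26.3 Mb of H3K27Ac peaks in Rescue against 8.99 Mb in WT cells, 10.6 against 4.57 Mb for RAD21 and 17.01 against 1.98 Mb for PDS5A. The IgG lists had a ratio of 1.0 at the limit. Untreated KO cells stood nearer to WT cells, with 5420 H3K27Ac, 5283 RAD21 and 901 PDS5A peaks, ratios to WT of 1.07, 1.45 and 0.521. Each genotype gave 1 list per antibody, so a count has no replicate spread and no test was possible.

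Most Rescue peaks were absent from WT cells at the limit, while most WT peaks were present in Rescue cells. Rescue-only peaks made up 71.3% of H3K27Ac peaks (10113 of 14177, 95% Wilson interval 70.6 to 72.1), 63.9% of RAD21 peaks (5747 of 8993, 62.9 to 64.9) and 88.6% of PDS5A peaks (12183 of 13746, 88.1 to 89.1). WT-only peaks made up 18.5% of H3K27Ac peaks (935 of 5045, 17.5 to 19.6), 10.6% of RAD21 peaks (386 of 3635, 9.66 to 11.7) and 9.53% of PDS5A peaks (165 of 1731, 8.24 to 11.01). The intervals cover counting error only. With both lists shortened to the length of the WT list by the lower replicate −log10 p, 42.8% of Rescue and 42.0% of WT H3K27Ac peaks were without a counterpart. For RAD21 these shares were 35.2% and 35.1%, and for PDS5A 41.5% and 41.3%. Lists of equal length must give nearly equal shares in both directions, so these values show only how many of the strongest peaks differed.

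Most Rescue-only peaks lay where WT cells had a weaker, deposited peak. A deposited WT peak over the IDR limit, here called a sub-limit peak, was met by 7902 H3K27Ac, 3782 RAD21 and 7620 PDS5A Rescue peaks. The remainder met no deposited WT peak of the same antibody and are called unmatched: 2211 H3K27Ac peaks, 15.6% of all Rescue peaks of the antibody (15.01 to 16.2), 1965 RAD21 peaks, 21.9% (21.0 to 22.7), and 4563 PDS5A peaks, 33.2% (32.4 to 34.0). In the other direction unmatched peaks were rare. They numbered 4 for H3K27Ac, 0.0793% of WT peaks, 21 for RAD21, 0.578%, and 1 for PDS5A, 0.0578%. Over every deposited peak, no deposited WT peak was met by 50% of H3K27Ac, 44.6% of RAD21 and 59% of PDS5A Rescue peaks, against 5.59%, 11.8% and 2.36% of WT peaks that met no deposited Rescue peak.

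**Figure D1:**
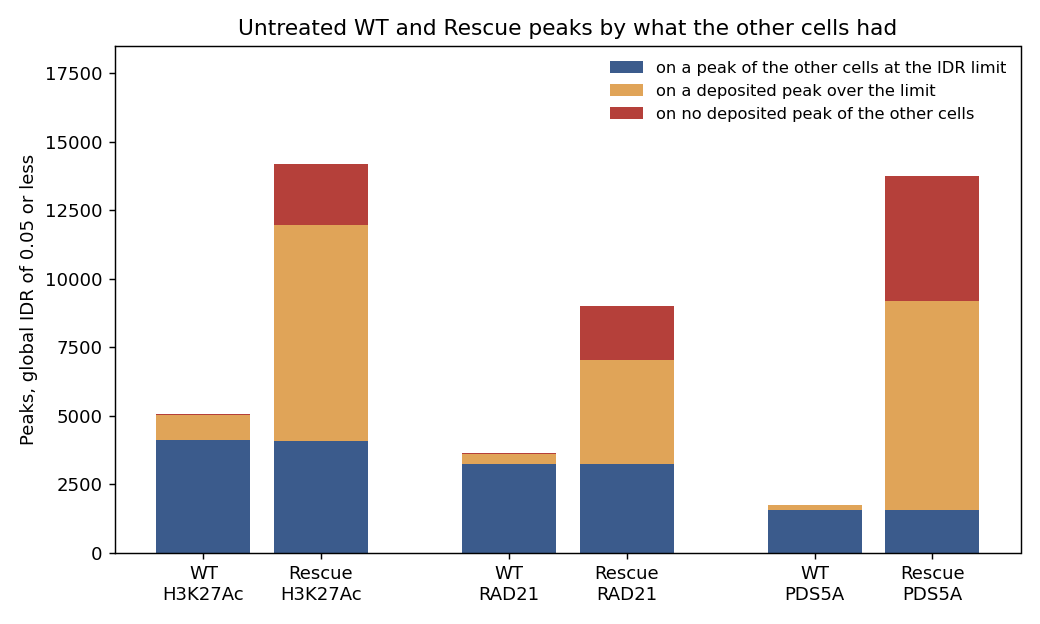
Number of untreated peaks (vertical axis, chromosomes 1 to 22, global IDR of 0.05 or less) in the WT and Rescue list of each antibody, stacked by what the other genotype had at the position. The shared parts of both lists are of like height for each antibody, the unmatched part is hardly visible in WT cells, and PDS5A has the most unmatched Rescue peaks, 4563.

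The sub-limit WT peaks were weaker in both replicates than the WT peaks at the limit, for all 3 antibodies. The IDR is itself drawn from both replicates, so this order largely follows from how the classes were set, and the values only describe it. At sub-limit H3K27Ac positions the median WT −log10 p, as deposited by the authors, was 9.67 in the first and 9.57 in the second replicate, against 21.7 and 19.4 over all WT H3K27Ac peaks at the limit. At PDS5A positions it was 9.39 and 10.7, against 22.1 and 27.1. For RAD21 the medians were 23.03 and 6.45, against 48.6 and 12.8 over all WT RAD21 peaks at the limit, so both replicates were below the level of that list. WT peaks that were sub-limit in Rescue cells showed another pattern. At the 164 PDS5A positions of this kind the Rescue medians were 42.7 in the first and 9.05 in the second replicate, and the median of the higher replicate was 60.0. At the 931 H3K27Ac positions they were 14.97 and 10.1, with 31.8 for the higher replicate, and at the 365 RAD21 positions 17.5 and 10.4, with 26.9. These Rescue peaks were also wide, with a median of 3042 bp for H3K27Ac, 1544 bp for RAD21 and 2510.5 bp for PDS5A, against 1617, 1019 and 1095 bp over all Rescue peaks at the limit. The median of the higher replicate was above that of Rescue-only peaks for H3K27Ac (21.8) and PDS5A (27.2), but below it for RAD21 (30.2). Where a position met several Rescue peaks, each value was the highest among them, so the values need not come from 1 peak. Peaks over the IDR limit are also those whose replicates rank less alike, so unlike replicates partly follow from how these positions were chosen.

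Within each Rescue list, the peaks that WT cells also had were the strong ones, and unmatched peaks were concentrated among the weak ones. Peaks were ranked by the lower of their 2 replicate −log10 p values and divided into 5 quintiles. From the weakest to the strongest quintile, the unmatched share of Rescue peaks went from 39.5% to 0.317% for H3K27Ac, from 42.0% to 4.17% for RAD21 and from 57.7% to 10.1% for PDS5A. The shared part went from 3.77% to 69.4%, from 9.62% to 80.8% and from 0.145% to 44.2%. At the strong end, 45.8% of the PDS5A quintile were sub-limit in WT cells, against 30.3% for H3K27Ac and 15.01% for RAD21. That PDS5A quintile held 2749 peaks, more than the 1731 of the WT PDS5A list, so it could hardly all be shared. The strongest H3K27Ac and RAD21 quintiles, of 2836 and 1799 peaks, were shorter than their WT lists, of 5045 and 3635. The part of list length in this contrast was not tested. In the WT lists 80.1% to 94.5% of the peaks of every quintile were shared. Since list lengths and replicate agreement differed, a −log10 p was compared only within a list.

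**Figure D2:**
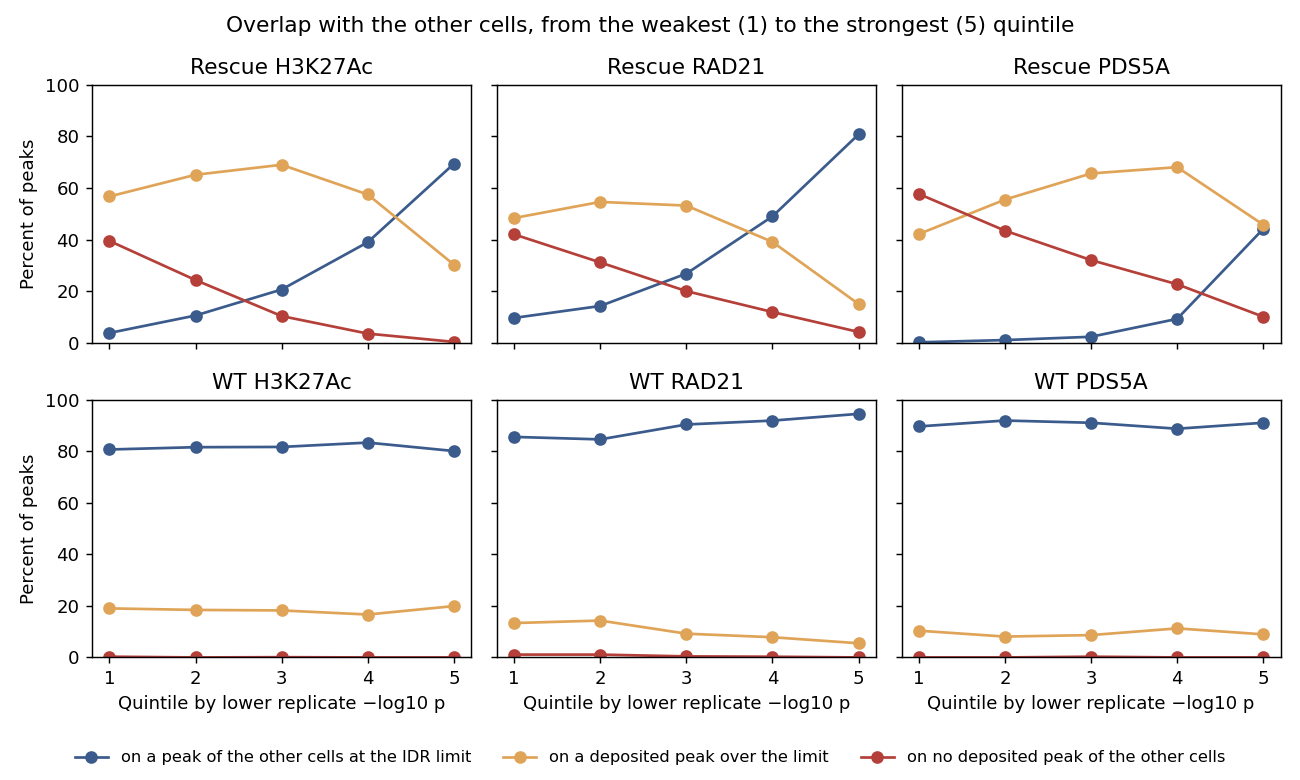
Percent of peaks (vertical axis) that were shared, sub-limit or unmatched in the other genotype, by quintile of the lower replicate −log10 p (horizontal axis, 1 weakest to 5 strongest), for Rescue lists (upper row) and WT lists (lower row). The shared line rises steeply in the Rescue lists, to between 44.2% and 80.8%, and stays between 80.1% and 94.5% in the WT lists.

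Widths followed the same order. Shared H3K27Ac peaks of Rescue cells had a median width of 1984 bp, sub-limit ones 1600 bp and unmatched ones 1108 bp. For RAD21 the medians were 1214.5, 1102 and 671 bp, and for PDS5A 1491, 1224 and 837 bp. Peaks at shared positions were usually wider in Rescue than in WT cells: 3452 of 4064 shared H3K27Ac peaks (84.9%), 2184 of 3246 RAD21 peaks (67.3%) and 1439 of 1563 PDS5A peaks (92.1%) exceeded their WT counterpart. Broad H3K27Ac peaks, of 4 kb or more, numbered 567 in Rescue and 145 in WT cells. Width depends on depth and on the calling settings, and the part of these was not tested.

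RAD21 peaks that Rescue cells added without any WT RAD21 peak were mostly sites with PDS5A and without H3K27Ac. Of the 1965 unmatched RAD21 peaks, 58.9% lay on a Rescue PDS5A peak alone (1157 peaks, 56.7 to 61.0), 9.26% on PDS5A and H3K27Ac, 6.82% on H3K27Ac alone and 25.04% on neither. Shared RAD21 peaks were on PDS5A alone in 39.8% and on both in 47.9% of cases. H3K27Ac was thus present at 16.1% of unmatched RAD21 peaks (14.5 to 17.8), against 54.9% of sub-limit and 54.8% of shared ones (53.1 to 56.5). Peaks are not replicates, and these intervals cover counting error only. Unmatched RAD21 peaks were narrower, with a median of 671 bp against 1102 and 1214.5 bp, and the part of width in this gap was not tested. Over every deposited Rescue peak, PDS5A was found at 96.4% and H3K27Ac at 31.2% of unmatched RAD21 peaks, so the gap for PDS5A nearly closed while that for H3K27Ac remained (76.3% at shared peaks). RAD21 peaks on PDS5A alone were narrow, with a median of 658 bp when unmatched and 922 bp when shared.

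PDS5A peaks that Rescue cells added were more often alone. Of the 4563 unmatched PDS5A peaks, 64.9% lay on neither RAD21 nor H3K27Ac (2960 peaks, 63.5 to 66.2), 19.8% on RAD21 alone, 9.84% on H3K27Ac alone and 5.46% on both. Shared PDS5A peaks lay on neither in 11.6% of cases (10.1 to 13.3) and on RAD21, with or without H3K27Ac, in 84.0%. Against every deposited Rescue RAD21 peak, 65.1% of unmatched PDS5A peaks had a counterpart, 91.5% of sub-limit and 97.7% of shared ones. Solitary unmatched PDS5A peaks had a median width of 772 bp and a median lower replicate −log10 p of 16.4, and those on RAD21 alone 902 bp and 18.4.

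At the limit, unmatched H3K27Ac peaks had the largest share without another antibody. Of these, 80.1% (1771 of 2211, 78.4 to 81.7) had neither RAD21 nor PDS5A at the limit, against 61.9% of sub-limit and 41.2% of shared H3K27Ac peaks (39.7 to 42.7). Over every deposited Rescue peak, 40.7% of unmatched H3K27Ac peaks met RAD21 and 48.7% PDS5A, so fewer stood alone. RAD21 and PDS5A together were, at the limit, found at 10.4% of unmatched and 34.5% of shared H3K27Ac peaks. Solitary shared H3K27Ac peaks were wide, with a median of 1950 bp, and solitary unmatched ones 1109 bp. Unmatched peaks were also weaker and narrower than shared ones, and the part of strength and width in these shares was not tested.

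**Figure D3:**
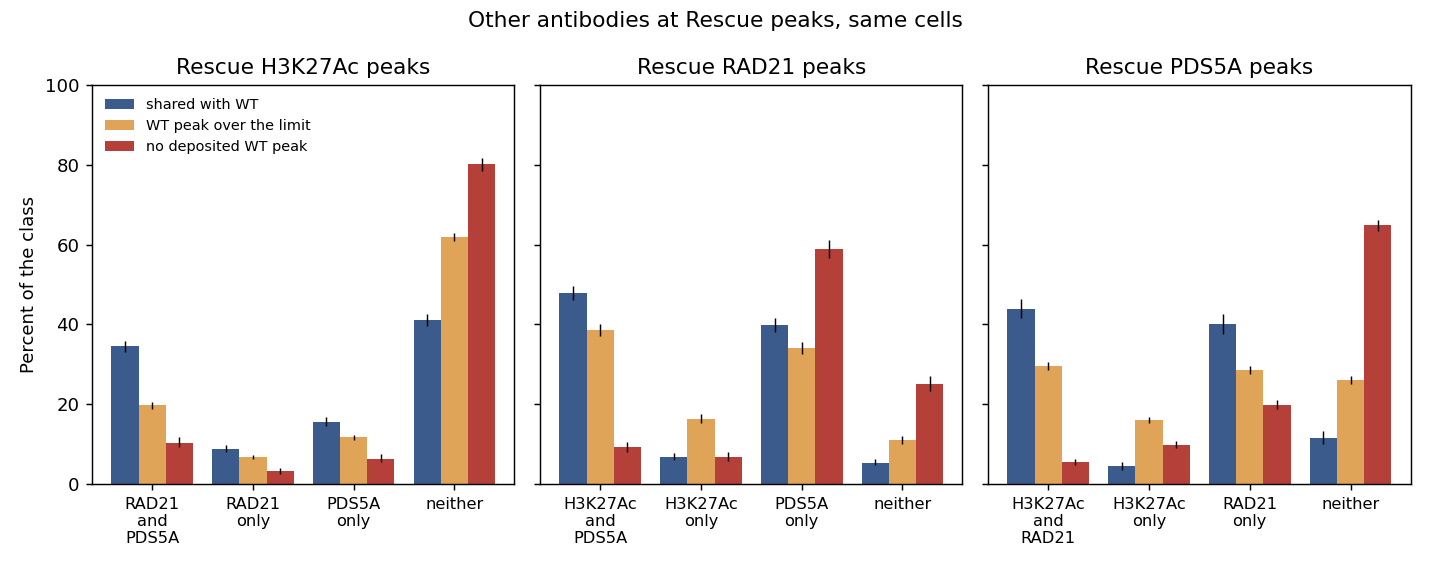
Percent of each class of Rescue peaks (vertical axis; error bars, 95% Wilson intervals) that lay on Rescue peaks of the other antibodies, for H3K27Ac, RAD21 and PDS5A. Unmatched RAD21 peaks are mostly on PDS5A alone (58.9%), whereas unmatched PDS5A and H3K27Ac peaks are mostly on neither (64.9% and 80.1%).

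Some positions without a WT peak of 1 antibody had a deposited WT peak of another, and for RAD21 alone these were the majority. A deposited WT peak of PDS5A or H3K27Ac was present at 57.3% of unmatched RAD21 positions (1125 of 1965, 55.1 to 59.4). That of RAD21 or H3K27Ac was present at 36.7% of unmatched PDS5A positions (1675 of 4563), and that of RAD21 or PDS5A at 26.7% of unmatched H3K27Ac positions (591 of 2211). At shared positions these shares were 95.7%, 90.2% and 78.9%. For RAD21, the WT PDS5A list alone covered 48.8% of unmatched positions, although only 4.17% at the limit. Positions with no deposited WT peak of any of the 3 antibodies numbered 840 for RAD21, 2888 for PDS5A and 1620 for H3K27Ac.

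Peaks of all 6 lists were merged where they overlapped into 24567 sites. Rescue cells alone had peaks at 16553 of them (67.4%), and WT cells alone at 559 (2.28%). Of all sites, 15468 were Rescue-only for exactly 1 antibody, 4852 for 2 and 893 for all 3. The most frequent state was H3K27Ac in Rescue cells with no other peak, at 6622 sites, then PDS5A in Rescue cells with no other peak, at 4732, and RAD21 with PDS5A, both Rescue-only and without H3K27Ac, at 2075. Rescue cells also added peaks at the limit to sites that WT cells already marked. Of 3226 sites with RAD21 in both genotypes, 2301 had another antibody at the limit in Rescue cells alone. Among them were 816 where this was PDS5A, with no H3K27Ac at the limit in either genotype. Of 4041 sites with H3K27Ac in both, 1993 had RAD21, PDS5A or both at the limit in Rescue cells alone. A deposited WT PDS5A peak was met by 93.4% of shared WT RAD21 peaks (31.2% at the limit), and H3K27Ac by 64.2% (29.8%). Shared WT H3K27Ac peaks met deposited WT RAD21 in 71.8% and PDS5A in 63.9% of cases. Many of these sites can thus have held a WT peak of the added antibody over the limit, but they were not counted. Sites with Rescue peaks and no deposited WT peak of any antibody numbered 4797 (19.5%), but only 14 of these were Rescue-only for all 3 antibodies.

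The KO background held a part of what WT cells lacked, with the highest share for RAD21, which also had the highest share over all Rescue peaks. At the limit, 22.2% of unmatched RAD21 peaks (436 of 1965, 20.4 to 24.1) lay on an untreated KO peak, against 1.85% for H3K27Ac (41 of 2211) and 0.636% for PDS5A (29 of 4563). Over all Rescue peaks the shares were 50.3%, 30.8% and 5.87%, in the same order of antibodies, so unmatched peaks met KO peaks less often than Rescue peaks in general. Among every deposited KO peak, counterparts were found for 65.9%, 41.9% and 26.6% of unmatched peaks, against 89.2%, 81.3% and 48.5% of all Rescue peaks. Unmatched peaks also called in KO cells were the stronger ones: their median lower replicate −log10 p in the Rescue list was 19.7 for RAD21, against 14.8 for those without a deposited KO peak, and 59.1 for PDS5A, against 15.5. The 29 strong PDS5A positions of this kind were also at the limit under osimertinib in WT cells at 28 and in Rescue cells at 27 of them. Peaks with neither a deposited WT nor a deposited KO peak numbered 1284 for H3K27Ac, 671 for RAD21 and 3347 for PDS5A. Because Rescue cells carried the knockout, a difference from WT cells that KO cells shared cannot be told apart from the KO background.

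Many unmatched RAD21 and PDS5A positions had a peak in WT cells grown under osimertinib. At the limit, 69.6% of unmatched RAD21 peaks (1368 of 1965, 67.5 to 71.6) and 43.0% of unmatched PDS5A peaks (1964 of 4563, 41.6 to 44.5) lay on a treated WT peak, but 14.97% of unmatched H3K27Ac peaks (331 of 2211, 13.5 to 16.5). Over all Rescue peaks these shares were higher, at 80.5%, 60.5% and 42.8%. Treated KO cells had fewer of the unmatched ones at the limit, with 14.5%, 5.17% and 12.8%, against 41.3%, 26.1% and 45.5% over all Rescue peaks. Treated Rescue cells kept 54.6% of unmatched RAD21, 43.5% of PDS5A and 32.4% of H3K27Ac peaks. Over all Rescue peaks they kept 76.8%, 64.3% and 64.6%. Treated WT cells thus held more of the unmatched RAD21 positions than treated Rescue cells did, and also more of all Rescue RAD21 peaks. Of the 671 RAD21 positions without a deposited WT or KO peak, 401 were at the limit in treated WT cells (59.8%) and 281 in treated Rescue cells (41.9%). Over every deposited peak, treated WT cells covered 90.7% of unmatched RAD21, 82.4% of PDS5A and 69.0% of H3K27Ac peaks. Treated KO cells then covered 59.8%, 47.5% and 83.2%, so for H3K27Ac they held more than treated WT cells. Over all Rescue peaks the deposited shares were 96.7%, 91.9% and 89.7% in treated WT cells and 85.5%, 74.5% and 95.3% in treated KO cells. The lists looked up differed in length, and the part of length in these shares was not tested.

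**Figure D4:**
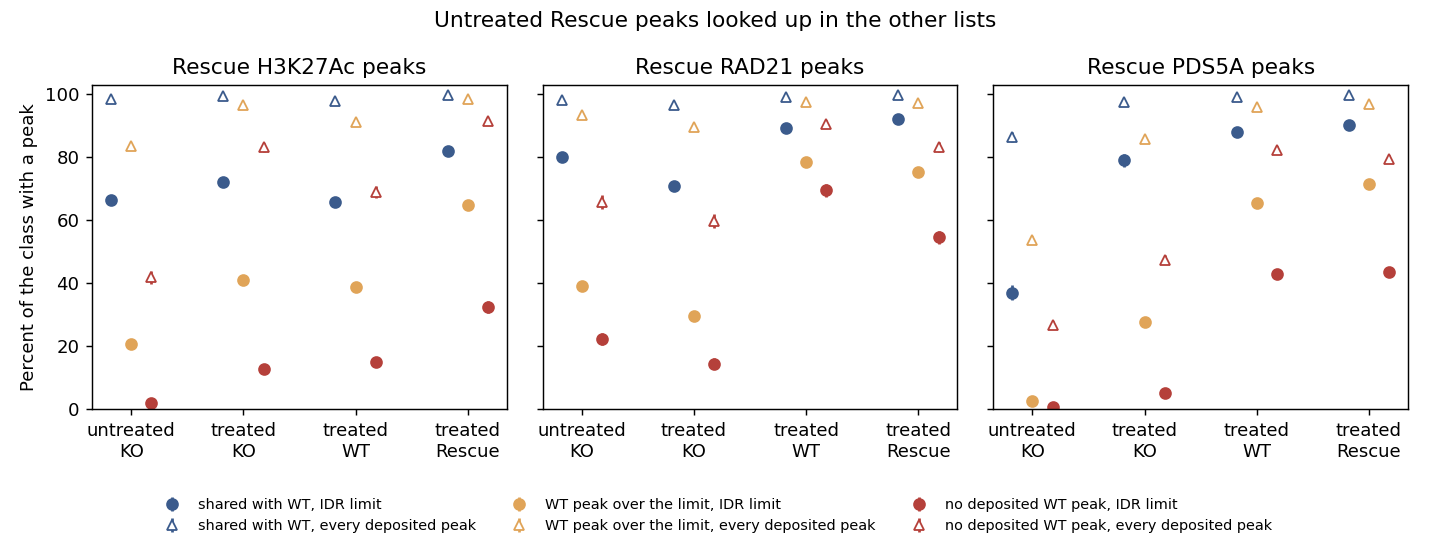
Percent of each class of untreated Rescue peaks (vertical axis) with a peak of the same antibody in untreated KO, treated KO, treated WT and treated Rescue cells, at the IDR limit (filled circles) or among every deposited peak (open triangles). Bars are 95% Wilson intervals, mostly smaller than the symbols. Unmatched RAD21 peaks reach 69.6% in treated WT cells and 22.2% in untreated KO cells.

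Few Rescue peaks stood alone in the series. Only 51 unmatched H3K27Ac peaks (2.31%), 37 RAD21 peaks (1.88%) and 247 PDS5A peaks (5.41%) met no deposited peak of the antibody in untreated KO cells or in treated cells of any of the 3 genotypes. They were narrow, with median widths of 670, 430 and 613 bp, and weak, with a median lower replicate −log10 p of 11.9, 14.1 and 14.1. Unmatched peaks rarely met background: 1.31% of those of H3K27Ac and 1.42% of those of RAD21 and of PDS5A lay on a deposited untreated IgG peak of WT or Rescue cells. The shares were 15.1%, 14.8% and 15.04% of shared peaks and 8.59%, 9.85% and 7.52% of all Rescue peaks. Unmatched peaks were narrower and were chosen for lacking a deposited WT peak, and the part of this in their low shares was not tested.

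The strongest unmatched RAD21 position lay on chromosome 20 from 23779990 to 23780514 (GRCh37), with a −log10 p of 166 in the first and 85.3 in the second Rescue replicate. RAD21 was at the limit there in KO cells and in all 3 genotypes under osimertinib, and Rescue PDS5A was too. The next 4 lay on chromosome 9 from 21789159 to 21790109 (67.1 in the first replicate, 59.8 in the second), chromosome 5 from 95949639 to 95950305 (62.7 first, 56.3 second), chromosome 5 from 153451707 to 153452482 (136 first, 55.0 second) and chromosome 20 from 2153117 to 2153417 (107 first, 50.9 second). All 5 were at the limit for RAD21 in untreated KO, treated KO and treated Rescue cells and for PDS5A in untreated Rescue cells. WT cells had a deposited PDS5A peak over the limit at all 5 and no deposited H3K27Ac peak at any. No gene was read from these coordinates, since no annotation of this build was used here.

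The 5 strongest unmatched PDS5A positions were strong in both replicates. That on chromosome 1 from 220454138 to 220454989 had a −log10 p of 117 and 114, and was at the limit for PDS5A in KO cells and in treated WT and Rescue cells. The others lay on chromosome 2 from 231688677 to 231689624 (91.8 first, 91.9 second), chromosome 15 from 74599692 to 74601154 (112 first, 89.2 second), chromosome 8 from 37636525 to 37638513 (82.8 first, 107 second) and chromosome 15 from 20560767 to 20562149 (86.7 first, 75.9 second). Of these 5, treated WT cells had a PDS5A peak at the limit at all 5, and untreated KO cells at all but the last, where theirs was over the limit. Rescue RAD21 was at the limit at all but the position on chromosome 8, where it was deposited over it.

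The strongest unmatched H3K27Ac position lay on chromosome 19 from 58011093 to 58011657, with 45.1 and 40.0, and was at the limit for H3K27Ac in treated cells of all 3 genotypes but had no deposited peak in KO cells. Those on chromosome 17 from 72964406 to 72965794 (37.6 first, 35.3 second) and chromosome 11 from 68518645 to 68519351 (33.0 first, 35.9 second) were at the limit in untreated KO cells. The remaining ones lay on chromosome 20 from 56566202 to 56567184 (55.5 first, 31.8 second) and chromosome 16 from 56839611 to 56841895 (31.5 first, 31.5 second), and KO cells had a deposited peak at both. The position on chromosome 20 was the only one of these 5 with RAD21 at the limit in WT cells, and it had RAD21 and PDS5A at the limit in Rescue cells. Untreated WT cells thus held RAD21 there without a deposited H3K27Ac peak. In treated WT cells H3K27Ac was at the limit at this position.

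Of the 14 sites that were Rescue-only for all 3 antibodies with no deposited WT peak of any, 5 were taken by the smallest of their lower replicate values. That on chromosome 10 from 47151013 to 47151433 (H3K27Ac, 28.4 and 31.5) lay on a deposited untreated IgG peak, and the other 4 did not. On chromosome 17 an H3K27Ac peak from 38182427 to 38183830 (21.0 and 21.5) met a RAD21 peak (18.2 and 14.5) and a PDS5A peak (44.4 and 26.8). Further sites lay on chromosome 10 at the H3K27Ac peak from 13344125 to 13344706, chromosome 20 at that from 11779506 to 11780701 and chromosome 10 at that from 8622806 to 8624371. At 3 of the 5, namely those on chromosome 17, on chromosome 20 and on chromosome 10 at 13344125, KO cells had deposited peaks of 2 antibodies. At the other 2 they had a RAD21 peak alone.

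WT-only positions with no deposited Rescue peak were few. The strongest of the 21 for RAD21 lay on chromosome 9 from 125112729 to 125113260, with 64.2 in the first and 16.2 in the second WT replicate. The next lay on chromosome 11 from 65512095 to 65512537 (42.2 first, 15.7 second), chromosome 1 from 35208028 to 35208658 (38.9 first, 13.2 second), chromosome 1 from 31383995 to 31384665 (37.0 first, 12.7 second) and chromosome 5 from 136105683 to 136106143 (46.5 first, 11.9 second). All 5 had a deposited RAD21 peak in treated Rescue cells, and 4 of them, all but that on chromosome 11, had Rescue PDS5A at the limit in untreated cells. The strongest of the 4 for H3K27Ac lay on chromosome 9 from 118434506 to 118435986, with 19.2 and 34.1; it was at the limit in treated WT cells and absent from every deposited Rescue H3K27Ac list. The single WT PDS5A peak without a deposited Rescue peak lay on an IgG peak.

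Rescue peaks were added across all 22 autosomes. In windows of 1 Mb that held a peak of either genotype, Rescue cells had more H3K27Ac peaks than WT cells in 1819 of 2004 windows (90.8%) and fewer in 37. For RAD21 they had more in 1703 of 1938 (87.9%) and fewer in 41, and for PDS5A more in 2087 of 2115 (98.7%) and fewer in 7. PDS5A peaks of Rescue cells lay in 1235 windows in which WT cells had none, and the whole WT PDS5A list held 1731 peaks. The Rescue lists of H3K27Ac, RAD21 and PDS5A held 2.81, 2.47 and 7.94 times as many peaks as the WT lists. Higher counts in most windows thus largely follow from list length, and they show only that the excess was spread widely. By chromosome, the PDS5A ratio was lowest on chromosome 20, with 630 Rescue against 123 WT peaks (5.12), and highest on chromosome 18, with 145 against 5 (29), and chromosome 13, with 250 against 10 (25). Over every deposited peak these ratios were 1.94, 3.76 and 2.79. Chromosome 18 also had the highest ratio for H3K27Ac, 180 against 44 peaks (4.09), and chromosome 20 the lowest, 610 against 289 (2.11). RAD21 had other extremes, chromosome 21 with 40 against 8 peaks (5) and chromosome 7 with 478 against 235 (2.03). Without the IDR limit the H3K27Ac ratio was lowest on chromosome 17 (1.54), with 1.62 on chromosome 20. The RAD21 ratio was then 1.75 on chromosome 21 and 1.46 on chromosome 7, and its extremes were chromosome 18 (1.79) and chromosome 19 (1.42).

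**Figure D5:**
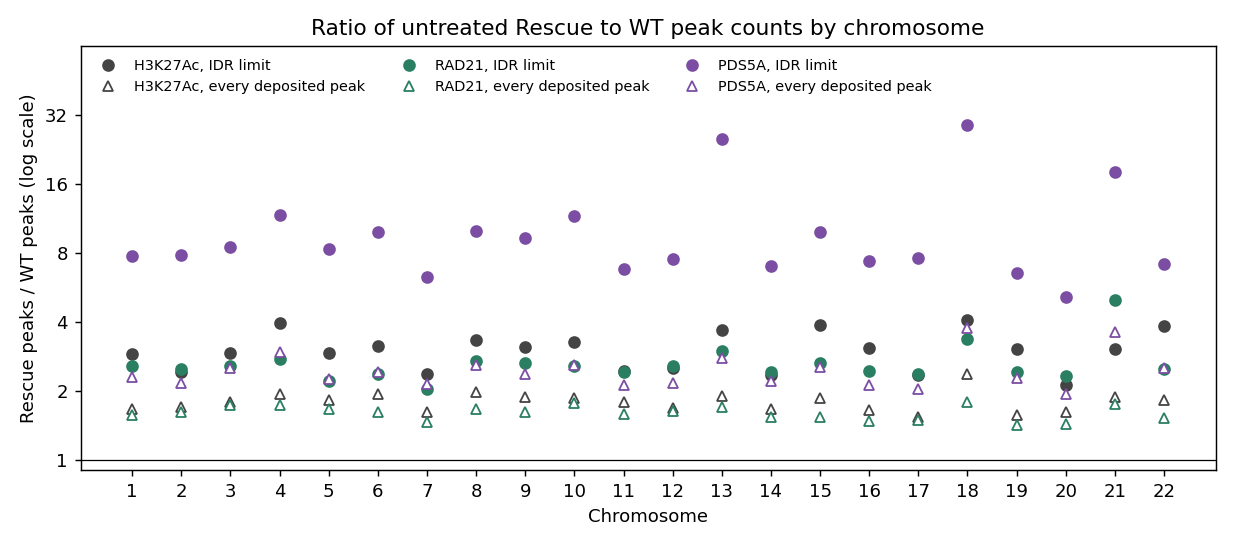
Ratio of Rescue to WT peak counts (vertical axis, log scale) on each autosome (horizontal axis), for peaks at the IDR limit (filled circles) and every deposited peak (open triangles). All points lie above 1; PDS5A on chromosomes 13 and 18 reaches 25 and 29, from 10 and 5 WT peaks.

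Single windows showed where the share of a list moved most, in percent of its peaks. For PDS5A the largest rises were on chromosome 17 from 38 to 39 Mb, with 28 Rescue and 0 WT peaks, chromosome 6 from 30 to 31 Mb, with 28 and 1, and chromosome 12 from 57 to 58 Mb, with 19 and 0. Deposited WT PDS5A peaks were present in all 3, at 22, 31 and 20, and over every deposited peak the share rose only in the window on chromosome 17. For H3K27Ac they were on chromosome 19 from 17 to 18 Mb (37 against 6), chromosome 19 from 10 to 11 Mb (27 against 3) and chromosome 15 from 74 to 75 Mb (18 against 0, with 1 in KO cells). For RAD21 they were on chromosome 2 from 99 to 100 Mb (10 against 0), chromosome 1 from 41 to 42 Mb (12 against 1) and chromosome 1 from 55 to 56 Mb (12 against 1), where KO cells had 4, 4 and 6. With all deposited peaks counted, the rises on chromosome 19 for H3K27Ac and on chromosome 2 for RAD21 turned into small falls.

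Windows with the largest fall in share had at least as many Rescue as WT peaks. For H3K27Ac they were on chromosome 12 from 6 to 7 Mb (28 Rescue and 24 WT peaks), chromosome 11 from 62 to 63 Mb (21 against 21) and chromosome 14 from 77 to 78 Mb (20 against 18). For RAD21 they were on chromosome 20 from 48 to 49 Mb (22 against 17) and on chromosome 19 from 58 to 59 Mb (21 against 16) and from 56 to 57 Mb (13 against 12). For PDS5A they were on chromosome 14 from 77 to 78 Mb (23 against 11) and on chromosome 19 from 54 to 55 Mb (26 against 10) and from 56 to 57 Mb (22 against 9). Peak numbers in these windows grew by less than the whole lists. All of them held deposited untreated IgG peaks, for example 2 in Rescue and 3 in WT cells on chromosome 20. On chromosome 19 these numbered 15 and 9 from 54 Mb, 7 and 15 from 56 Mb and 11 and 7 from 58 Mb. The windows with the largest rise held at most 5 and 6, on chromosome 19 from 10 Mb. The part of background in these falls was not tested. The window with the largest excess of WT over Rescue peaks, chosen after values were seen, was on chromosome 7 from 148 to 149 Mb for H3K27Ac, with 9 Rescue and 11 WT peaks; KO cells also had 11.

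Unmatched peaks lay farther from shared peaks than shared peaks lay from each other. From centre to centre, the median distance to the nearest other shared Rescue peak of the same antibody was 75.9 kb for shared, 96.0 kb for sub-limit and 119 kb for unmatched H3K27Ac peaks. For RAD21 the medians were 142, 151 and 167 kb, and for PDS5A 227, 297 and 405 kb. Within 100 kb of a shared peak lay 46.0% of unmatched H3K27Ac, 35.4% of RAD21 and 21.7% of PDS5A peaks, against 57.6%, 40.2% and 32.2% of shared ones. The gap was smallest for RAD21. Unmatched peaks were also weaker and narrower than shared ones, and the part of this in the distances was not tested.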

How the data were processed

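The authors deposited 1 list per antibody, genotype and treatment. Each joins both replicates and holds, per peak, the −log10 p-value of each replicate, at least 3 in the 6 lists compared, and the −log10 of the global IDR. Reads were mapped to GRCh37, and MACS2 2.2.7.1, Bowtie2 2.4.2, bedtools 2.30, deepTools 3.5.1, SAMtools 1.16, FastQC and Trimmomatic were used, per the submitters' processing notes. In what order they ran, how MACS2 was set and which IDR version was used are not given in the sources used here. The labels planned 20 M paired-end reads per library, but depth per sample is unknown.

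Peaks were filtered by chromosome and IDR, compared by overlap of 1 bp or more, and given with Wilson 95% intervals, without p-values. The replicate columns were taken as first and second, since no header names them. The authors' −log10 p described or ranked peaks within a list. Positions named were, per antibody and direction, the 5 peaks with the highest lower replicate −log10 p among those meeting no deposited peak of the other cells and no deposited untreated IgG peak of WT or Rescue cells, and the 5 sites Rescue-only for all 3 antibodies without a deposited WT peak. Windows named were those of 1 Mb whose share of a list rose most (3 per antibody) or fell most (3). Members and lists were chosen with earlier results of these data known. Alternatives were every deposited peak, an IDR of 0.01, peaks on IgG left out, chromosome X included, the boundaries of 1 replicate, covered length, lists of equal length and an overlap of 50% of the shorter peak. Mitochondrial peaks, the 12 H2A samples and the treated IgG lists were not used here, and neither was an annotation of the files' build, so shares at promoters and the planned gene and cell type lists were not computed, and the PC9 identity was not checked against markers. The overlap code was tested on simulated data from the 8993 Rescue RAD21 regions: it missed 0 of 3649 regions nudged to overlap by 1 bp and matched 0 of 5344 moved away, and a direct search gave the same answer for 500 of 500 regions. The software was pandas 2.3.3, scipy 1.17.1, matplotlib 3.10.9 and numpy 2.4.6 under Python 3.11.15.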

Additional observations from a re-analysis of the deposited data

How the results depend on the processing

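Of 69 values recomputed for the ratios of peak counts and the shares of peaks absent from the other genotype, 47 stayed within 1.5 times the ratio or within the 95% interval of the share, and 22 moved. All ratios stayed above 1. The boundaries of a single replicate and the overlap of 50% kept the same peaks, so they could hardly change a share, and their values are among the 47. Every deposited peak and lists of equal length moved every share. In the order H3K27Ac, RAD21 and PDS5A, every deposited peak gave ratios of Rescue to WT peaks of 1.74, 1.59 and 2.31, shares of Rescue peaks absent from WT cells of 49.97%, 44.6% and 59%, and shares of WT peaks absent from Rescue cells of 5.59%, 11.8% and 2.36%. An IDR of 0.01 gave Rescue shares of 78.0%, 67.2% and 92.1%, and a WT H3K27Ac share of 23.4%. Without peaks on an IgG peak, Rescue shares were 73.4%, 66.0% and 89.6%. With lists of equal length, Rescue shares were 42.8%, 35.2% and 41.5% and WT shares 42.0%, 35.1% and 41.3%. The cause of these moves was not tested. The boundaries of a single replicate left Rescue shares at 71.3%, 63.9% and 88.6% and ratios of covered length from 2.83 to 3.10, 2.29 to 2.64 and 7.62 to 9.89. Against every deposited peak of the other antibody, Rescue-only RAD21 peaks met H3K27Ac in 60.7% (41.6% at the limit) and PDS5A in 98.4% (71.1%), and Rescue-only PDS5A peaks met H3K27Ac in 49.9% (34.2%) and RAD21 in 81.6% (45.8%). Of the 18 windows named, 13 kept the sign of their change in share over every deposited peak, none within 1.5 times. The rises became falls in 5, by percentage points: -0.0289 and -0.00452 for H3K27Ac on chromosome 19 from 17 and from 10 Mb, -0.00839 for RAD21 on chromosome 2 from 99 Mb, and -0.0572 and -0.0192 for PDS5A on chromosome 6 from 30 Mb and chromosome 12 from 57 Mb. No paired analysis was possible because each list joins both replicates and the results come from no test.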
